A study of Homo sapiens with 6 samples.

Results

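The genes described here encode the protein subunits of oxidative phosphorylation, in the nucleus and in the mitochondrial genome. They were taken by symbol: names that begin with NDUFA, NDUFB, NDUFC, NDUFS, NDUFV, UQCR, COX4 to COX8 or ATP5, the symbols SDHA to SDHD, and the mitochondrial MT-ND, MT-CO, MT-ATP and MT-CY genes, without hyphenated symbols or pseudogene names. This gave 109 of the 60835 distinct symbols in the deposited tables, each on 1 line. Of these, 96 are nuclear and 13 are mitochondrially encoded. The nuclear ones comprise 7 core and 32 accessory genes of complex I, 4 of complex II, 9 of complex III, 17 of complex IV and 19 of complex V. The other 8 are NDUFAF genes, complex I assembly factors that the name rule takes in, and these are counted apart from the 88 nuclear subunit genes. The rule also takes in a few genes that are not subunits in the strict sense, such as ATP5IF1, the inhibitor of ATP synthase, and COX7A2L, a factor in joining complexes III and IV. It misses CYC1, the cytochrome c1 of complex III, which is counted with the electron carriers outside the rule.

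PANC-1 is an established line of pancreatic epithelioid carcinoma. All cells here were SMAD4-knockout PANC-1 cells, and they were transfected either with SMAD4 that carries R272K, an arginine-to-lysine substitution, or with wild-type (WT) SMAD4, 3 libraries each, on day 3. The series concerns methylation of SMAD4 by the arginine methyltransferase PRMT1. Poly(A) RNA was captured with oligo(dT) beads. No library of knockout cells without SMAD4 was analysed here, and no label says whether the 3 libraries of a group are separate cultures or whether the knockout line is 1 clone, so each p-value speaks only to the spread among these libraries, which may be technical.

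Complexes I to IV of the inner mitochondrial membrane pass electrons to oxygen and, apart from complex II, pump protons, and complex V, the ATP synthase, uses the proton gradient to make ATP. Their subunits come from both genomes except for complex II, which is wholly nuclear. Mitochondrial mRNAs are cut from long transcripts of both strands, made by a separate polymerase, and most receive short poly(A) tails. Each nuclear gene has its own promoter, many of them with sites for the factors NRF1 and GABP.

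Libraries held 14776148 to 17706201 counts over distinct symbols. SMAD4 was measured first, as a check of the labels. Its level was 40.6, 45.6 and 43.6 CPM (counts per 1000000 on TMM-scaled library sizes) in the R272K libraries, against 83.4, 93.6 and 89.0 CPM in the WT libraries. The groups did not overlap, and the log2 fold change was -1.03 (SE 0.0749, edgeR adjusted p = 6.28e-06), or -1.08 without WT replicate 1. The counts do not separate an endogenous from an introduced transcript, so for every result below the substitution and the amount of SMAD4 transcript cannot be told apart. WT replicate 1 stood apart from the other libraries, since a first principal component with 32.2% of the variance put it at 31.3 and the others between -15.6 and 9.56. Counts and medians over the members, and fold changes of the members named, are therefore given with and without it. Of 6 epithelial markers, which summed to 3029 CPM or more in every library, 1 was called: CDH1, the E-cadherin gene, rose to 6.47 ± 0.313 CPM in R272K cells, against 2.59 ± 0.490 CPM in WT cells (SD, n = 3 each; edgeR adjusted p = 0.00174). KRT8, a keratin of simple epithelia, had 2700, 2792 and 2895 CPM in R272K libraries, against 2532, 2135 and 2043 CPM in WT libraries (log2 fold change 0.32, adjusted p = 0.0661), and EPCAM 4.73, 5.19 and 4.43 CPM in R272K, against 3.54, 4.33 and 3.08 CPM in WT libraries (0.39, adjusted p = 0.338). All R272K libraries lay above all WT libraries in these 3 genes, a pattern found in 10.9% of all genes tested. KRT18 had a log2 fold change of 0.11, while KRT7 and KRT19 went the other way (-0.13 and -0.10, edgeR adjusted p = 0.866 and 0.633). Without WT replicate 1 the genes called higher were CDH1, KRT8 and KRT18 (1.17, 0.42 and 0.21), and KRT7 and KRT19 were at 0.12 and 0.02. Of the 18 markers of acinar, islet, fibroblast, leukocyte, endothelial and muscle cells, 0 exceeded 0.912 CPM in any library.

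Transcripts of the mitochondrial genome were mostly more abundant than those of the nuclear subunits. On the length-scaled TPM values (transcripts per 1000000), the 13 mitochondrial genes ran from 269.6 TPM for MT-ATP8 to 10992 TPM for MT-CO1, the catalytic subunit of complex IV, with a median of 3627 TPM over 6 libraries. The highest nuclear member was ATP5F1B, the catalytic beta subunit of ATP synthase, at 1686 TPM. UQCRH, the hinge protein of complex III, had 943 TPM, NDUFS5, an accessory subunit of complex I, 850.4 TPM, and COX6B1, a complex IV subunit on the intermembrane side, 606 TPM. SDHB, the iron-sulfur subunit of complex II, led its complex at 418 TPM, NDUFV1, the core subunit that binds NADH, led the complex I core at 214 TPM, and NDUFAF8 led the assembly factors at 114 TPM. Medians over members were 61.5 TPM for complex I accessory genes, 56.4 for its core, 211 for complex II, 43.6 for complex III, 116.9 for complex IV and 93.8 for complex V.

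The summed TPM of the 96 nuclear members was 0.261, 0.262 and 0.245 of that of the 13 mitochondrial genes in R272K replicates 1 to 3, against 0.283, 0.273 and 0.272 in WT replicates 1 to 3. The groups did not overlap in this ratio, which is a description without a test. Mitochondrial subunit genes took 1.86%, 1.88% and 1.84% of all counts in R272K libraries and 1.99%, 1.76% and 1.72% in WT libraries, so that the R272K values lay between WT replicate 1 and the other WT libraries.

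**Figure D1:**
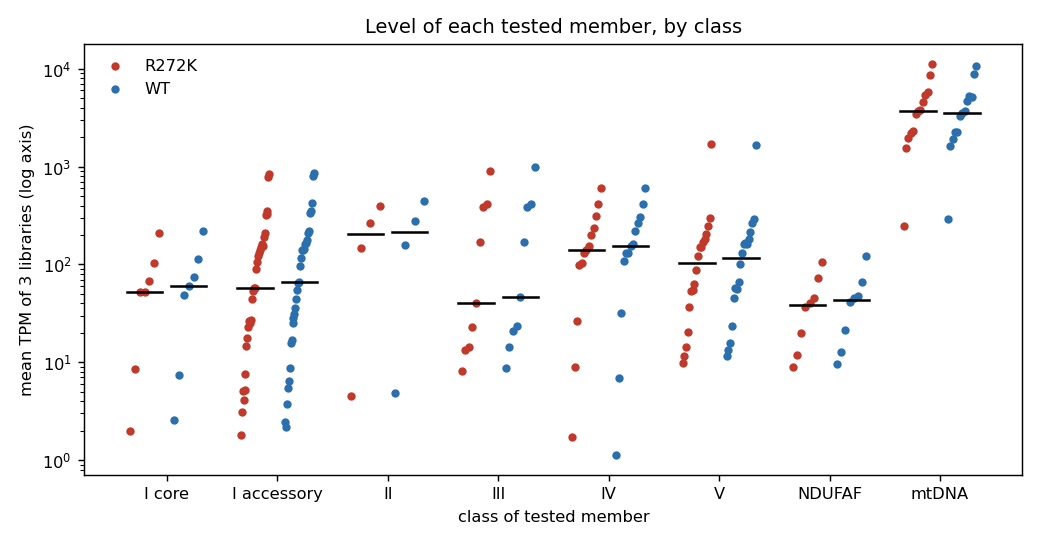
Mean TPM of each tested member in 3 R272K libraries (red, left) and 3 WT libraries (blue, right), on a log axis, by class; black lines are medians over members. The mitochondrial (mtDNA) genes lie above most nuclear members, up to 10992 TPM for MT-CO1, and the levels of the groups are close in every class.

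Of the 109 members 103 passed the filter on low counts, 82 of them nuclear subunits. None of the 82 was called with R272K SMAD4 when all 6 libraries were compared (edgeR's quasi-likelihood test, adjusted p below 0.05 over 15911 genes), and DESeq2 and limma-voom called 0 as well. Among all genes tested, 0.685% were called higher and 0.528% lower. At an unadjusted p under 0.05, 14 nuclear subunits were lower and 0 higher, where 1128 of all 15911 genes were lower and 1142 higher. The log2 fold change was negative for 72 of the 82 and positive for 10, with a median of -0.13, where the median of all genes tested was 0.00. In bulk RNA, fewer cells of a type and less RNA per cell cannot be told apart.

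That lean rested largely on WT replicate 1. Without it the median over the 82 was -0.01, 49 were negative and 33 positive, and 3 were lower and 2 higher at an unadjusted p under 0.05. Among all 15911 genes, 1383 were lower and 1511 higher at that level without WT replicate 1. The number of nuclear subunits lower at that level was 14 without WT replicate 2, where 957 of all 15911 genes were lower. It was 34 without WT replicate 3, a fit whose number over all genes is not given here. It was 7, 9 and 5 without R272K replicates 1, 2 and 3, where 767, 792 and 831 of all 15911 genes were lower. Medians under those leave-outs lay between -0.20 and -0.11. In the fit without WT replicate 1, 3.03% of all genes were called higher and 2.47% lower, and among the 82 nuclear subunits 1, NDUFA9, was called lower and 0 higher.

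**Figure D2:**
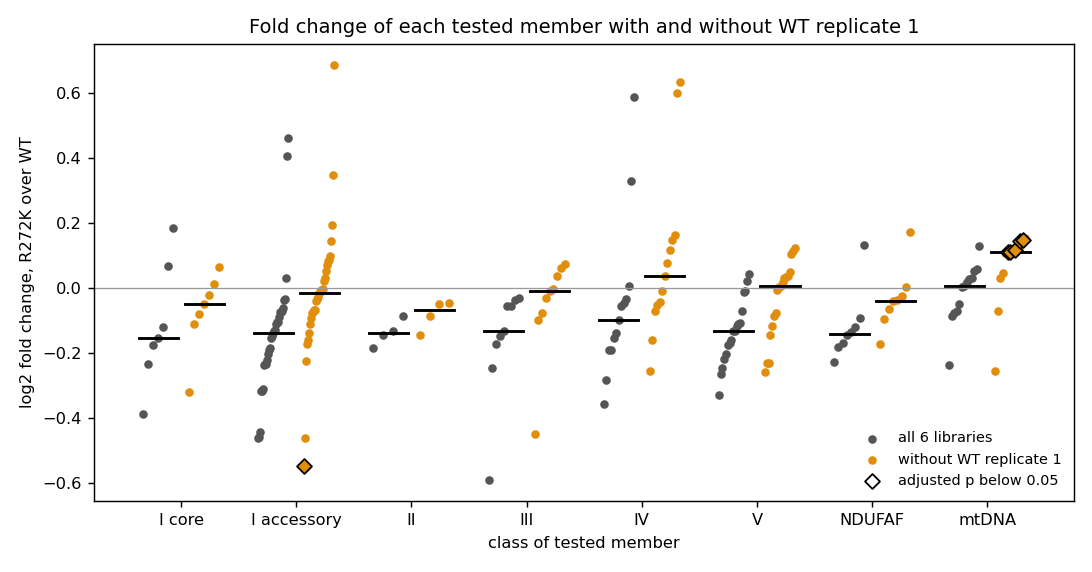
Log2 fold change, R272K over WT, of each tested member by class, with all 6 libraries (grey) and without WT replicate 1 (orange); black lines are medians and diamonds mark an adjusted p below 0.05. The nuclear classes lie mostly below 0 with all 6 libraries and near 0 without WT replicate 1, where 5 mitochondrial genes and NDUFA9 are marked.

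The core subunits of complex I carry the flavin and the iron-sulfur clusters that take electrons from NADH to ubiquinone. Of the 7, 0 were called in either fit and 5 had a negative log2 fold change, with a median of -0.15 with all 6 libraries and -0.05 without WT replicate 1. NDUFS3 had the smallest p. Its level was 55.7, 57.5 and 53.1 CPM in R272K libraries, against 75.4, 64.2 and 55.4 CPM in WT libraries (log2 fold change -0.23, SE 0.0979, adjusted p = 0.3). Of the R272K libraries 2 lay above the lowest WT library, so the groups overlapped. NDUFS8, which holds a pair of iron-sulfur clusters, stood at 66.0 ± 4.43 CPM in R272K and 74.4 ± 10.6 CPM in WT cells (SD, n = 3 each), and NDUFV1 at 166 ± 2.58 CPM in R272K and 181 ± 20.4 CPM in WT cells. Neither was called (adjusted p = 0.436 and 0.519). The log2 fold changes without WT replicate 1 were -0.11 for NDUFS3, -0.05 for NDUFS8 and -0.02 for NDUFV1.

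The accessory subunits surround that core and are needed for its assembly and stability. Of the 31 tested, 0 were called with all 6 libraries, 6 were lower at an unadjusted p under 0.05 and 28 were negative. At that level 1128 of all 15911 genes were lower. NDUFA9, which lies beside the quinone site, was the only nuclear subunit to be called without WT replicate 1. It had 5.25, 4.39 and 4.69 CPM in R272K libraries, against 5.59, 6.96 and 7.01 CPM in WT libraries. The 3 R272K values were the lowest of the 6, and WT replicate 1 was the lowest WT value, opposite to most nuclear subunits. The log2 fold change was -0.44 (SE 0.155, adjusted p = 0.212) with all libraries and -0.55 (SE 0.167, adjusted p = 0.0483) without WT replicate 1. Over all fits run its adjusted p lay between 0.0482 and 0.513, and at 2.12 TPM it was the least abundant tested accessory gene.

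NDUFC1, a small membrane subunit, had 19.3, 19.0 and 16.9 CPM with R272K, against 27.1, 20.8 and 20.7 CPM with WT. The groups did not overlap, and the log2 fold change was -0.32 (SE 0.116, adjusted p = 0.232). NDUFS6, a zinc-binding subunit added late in assembly, had 60.2, 69.9 and 53.4 CPM with R272K, against 93.6, 70.7 and 63.8 CPM with WT (-0.32, SE 0.128, adjusted p = 0.282). Its groups overlapped. With no filter on low counts, NDUFS6 was called lower (-0.32, adjusted p = 0.0108), and over all fits its adjusted p lay between 0.0108 and 0.633. The abundant NDUFS5 stood at 145 ± 11.9 CPM in R272K and 152 ± 25.1 CPM in WT cells (SD, n = 3 each; adjusted p = 0.791). Among nuclear subunits, 1 of 82 (1.22%) had all R272K libraries above all WT libraries, against 10.9% of all genes. It was NDUFA11, a membrane subunit chosen here after its values were seen. NDUFA11 had 3.48, 3.59 and 4.49 CPM in R272K, against 2.68, 3.11 and 2.95 CPM in WT libraries (log2 fold change 0.41, edgeR adjusted p = 0.354). The log2 fold changes without WT replicate 1 were -0.17 for NDUFC1, -0.14 for NDUFS6, 0.07 for NDUFS5 and 0.35 for NDUFA11.

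The assembly factors of the NDUFAF group build complex I without remaining in it. Of 8 tested, 0 were called by edgeR, DESeq2 or limma-voom, 0 had an unadjusted p under 0.05 and 7 were negative, with a median log2 fold change of -0.14 (-0.04 without WT replicate 1). NDUFAF1, which chaperones an early membrane part, had 27.5, 32.0 and 30.6 CPM with R272K, against 33.7, 33.6 and 34.003 CPM with WT. NDUFAF4 had 28.7, 27.9 and 28.3 CPM with R272K, against 37.0, 28.9 and 30.3 CPM with WT. In both genes, 2 of the 8, every R272K library lay below every WT library, where 10.4% of all genes did so. The reverse order was found in 0 of the 8, against 10.9% of all genes. NDUFAF8 overlapped (24.98 ± 1.66 CPM in R272K and 29.1 ± 5.95 CPM in WT cells). Adjusted p-values of these 3 genes were 0.365, 0.421 and 0.436 by edgeR. Without WT replicate 1 the log2 fold change of NDUFAF1 was -0.17, as with all libraries, and those of NDUFAF4 and NDUFAF8 were -0.06 and -0.04.

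Complex II, succinate dehydrogenase, links the citric acid cycle to the chain. All 4 genes had negative log2 fold changes, from -0.18 to -0.09, with a median of -0.14 with all 6 libraries and -0.07 without WT replicate 1, and 0 were called. SDHB had 129, 129.6 and 123 CPM in R272K libraries, against 163, 133 and 137 CPM in WT libraries (-0.18, SE 0.0785, adjusted p = 0.304). The membrane anchor SDHD had 62.6, 63.1 and 60.9 CPM with R272K, against 75.7, 63.4 and 65.4 CPM with WT (-0.13, adjusted p = 0.472). Both genes kept every R272K library below every WT library, SDHD by a narrow margin, where 10.4% of all genes did so. The other anchor, SDHC, overlapped, at 109.8 ± 4.997 CPM in R272K and 116 ± 5.62 CPM in WT cells (SD, n = 3 each; adjusted p = 0.598). With WT replicate 1 left out, the log2 fold changes were -0.09 for SDHB and -0.05 for both SDHD and SDHC. SDHA, the flavoprotein, had only 56 to 83 counts per library, while its pseudogenes SDHAP1 and SDHAP4 had 290 to 376 and 266 to 326, so its reads cannot be assigned with certainty.

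Complex III passes electrons from ubiquinol to cytochrome c. The 9 genes taken by name include UQCRHL, a near copy of UQCRH, and leave out CYC1. Each of these 9 had a negative log2 fold change (median -0.13, and -0.01 without WT replicate 1), and 0 were called. UQCR10, a small subunit at the edge of the complex, had the smallest p of all members. Its level was 3.68, 4.33 and 4.49 CPM with R272K, against 7.36, 6.15 and 5.24 CPM with WT. The groups did not overlap, and the log2 fold change was -0.59 (SE 0.17, adjusted p = 0.13), or -0.45 (SE 0.185) without WT replicate 1, and over all fits the adjusted p lay between 0.0615 and 0.423. UQCRH stood at 195 ± 19.0 CPM in R272K and 219.9 ± 25.7 CPM in WT cells, and UQCRQ, which contacts cytochrome b, at 20.2 ± 0.754 CPM in R272K and 23.8 ± 5.62 CPM in WT cells (SD, n = 3 each). The groups overlapped for both genes (adjusted p = 0.408 and 0.447), whose log2 fold changes without WT replicate 1 were -0.08 and -0.03.

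Complex IV, cytochrome c oxidase, reduces oxygen. Of 13 tested nuclear genes 0 were called and 10 were negative, with a median of -0.10 (0.04 without WT replicate 1). COX8A, a small membrane subunit that stabilises the complex, had 14.97, 16.9 and 16.9 CPM with R272K, against 23.5, 20.3 and 18.5 CPM with WT. All R272K values were below all WT values, and the log2 fold change was -0.36 (SE 0.108, adjusted p = 0.148), or -0.26 (SE 0.104) without WT replicate 1, and over all fits the adjusted p lay between 0.0629 and 0.465. COX6A1 had 6.49 ± 0.760 CPM in R272K and 7.87 ± 1.10 CPM in WT cells, and COX7A2L 137 ± 7.91 CPM in R272K and 153 ± 16.9 CPM in WT cells (SD, n = 3 each; adjusted p = 0.414 and 0.425). Both overlapped between groups, and their log2 fold changes without WT replicate 1 were -0.16 and -0.07.

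Several complex IV subunits have a second gene whose protein is used in heart and skeletal muscle, lung, testis or under low oxygen, and these cells had mainly transcripts of the widely expressed member of each pair. COX4I1 had 158 TPM, while COX4I2 had 5 counts in all 6 libraries together. COX6A1 had 29.2 TPM and COX6A2 0 counts, COX7B 104 TPM and COX7B2 1 count, and COX8A 116.9 TPM and COX8C 3 counts. COX6B2 was tested at 1.42 TPM beside 606 TPM for COX6B1, and COX7A1 at 7.88 TPM beside 411 TPM for COX7A2. NDUFA4, which carries a complex I name but is now placed in complex IV, had 213 TPM, and its paralog NDUFA4L2, known as a hypoxia-induced gene, 2.64 TPM. COX6B2 had 0.656, 1.26 and 1.498 CPM with R272K, against 0.798, 0.541 and 0.917 CPM with WT. NDUFA4L2 had 1.51, 0.932 and 1.11 CPM with R272K, against 1.08, 0.676 and 0.786 CPM with WT. COX7A1 had 2.30, 0.732 and 0.912 CPM with R272K, against 1.37, 0.608 and 1.11 CPM with WT. The groups overlapped for all 3 of these low genes, whose log2 fold changes were 0.59, 0.46 and 0.33 (edgeR adjusted p = 0.52, 0.576 and 0.782), or 0.63, 0.69 and 0.60 without WT replicate 1. Among the abundant genes of these pairs, COX4I1 had 193 ± 14.2 CPM in R272K and 207 ± 32.4 CPM in WT cells, and COX6B1 150.1 ± 11.8 CPM in R272K and 155 ± 23.5 CPM in WT cells (SD, n = 3 each). COX7A2 had 119 ± 12.8 CPM in R272K and 122 ± 21.4 CPM in WT cells, COX7B 75.9 ± 5.11 CPM in R272K and 86.5 ± 15.6 CPM in WT cells, and NDUFA4 134 ± 8.54 CPM in R272K and 144 ± 15.4 CPM in WT cells. Each of these 5 differences was smaller than the SD between WT libraries, and without WT replicate 1 the log2 fold changes lay between -0.04 for COX7B and 0.12 for COX7A2. Of the other members that were too low to test, NDUFA7 had 5 to 9 counts per library and ATP5MGL 3 in all.

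The genes of complex V encode the catalytic head, the proton channel and the stalks that join them. Of 18 tested, 0 were called and 16 were negative, with a median of -0.13 (0.01 without WT replicate 1). ATP5MF, a membrane subunit, had 9.19, 8.85 and 9.05 CPM with R272K, against 12.4, 10.7 and 10.9 CPM with WT (log2 fold change -0.33, SE 0.114, adjusted p = 0.206). ATP5PO, a subunit of the outer stalk, had 8.93, 9.12 and 8.403 CPM with R272K, against 11.1, 10.004 and 10.7 CPM with WT (-0.27, SE 0.113, adjusted p = 0.305). In both genes the groups did not overlap, and without WT replicate 1 the log2 fold changes were -0.26 and -0.23. ATP5F1D, a subunit of the central stalk, overlapped between groups at 43.7 ± 2.17 CPM in R272K and 51.8 ± 9.68 CPM in WT cells (adjusted p = 0.336; log2 fold change -0.08 without WT replicate 1). ATP5F1B, the most abundant nuclear member, stood at 938, 959.9 and 936 CPM with R272K, against 1033, 919 and 908 CPM with WT. Its 95% interval on the log2 scale ran from -0.15 to 0.13, and from -0.02 to 0.12 without WT replicate 1.

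Over the 82 nuclear subunits, 12 had every R272K library below every WT library, 14.6% of those tested where the share was 10.4% of all genes. Complex V held 5 of these 12, which were ATP5MF, ATP5PO and, named after their values were seen, ATP5PB, ATP5IF1 and ATP5MG. All R272K libraries lay above all WT libraries in 1 of 82 (1.22%), against 10.9% of all genes. With WT replicate 1 set aside, 12 of 82 (14.6%) lay below both other WT libraries and 7 (8.54%) above them, where the shares of all genes were 16.8% and 17.1%.

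**Figure D3:**
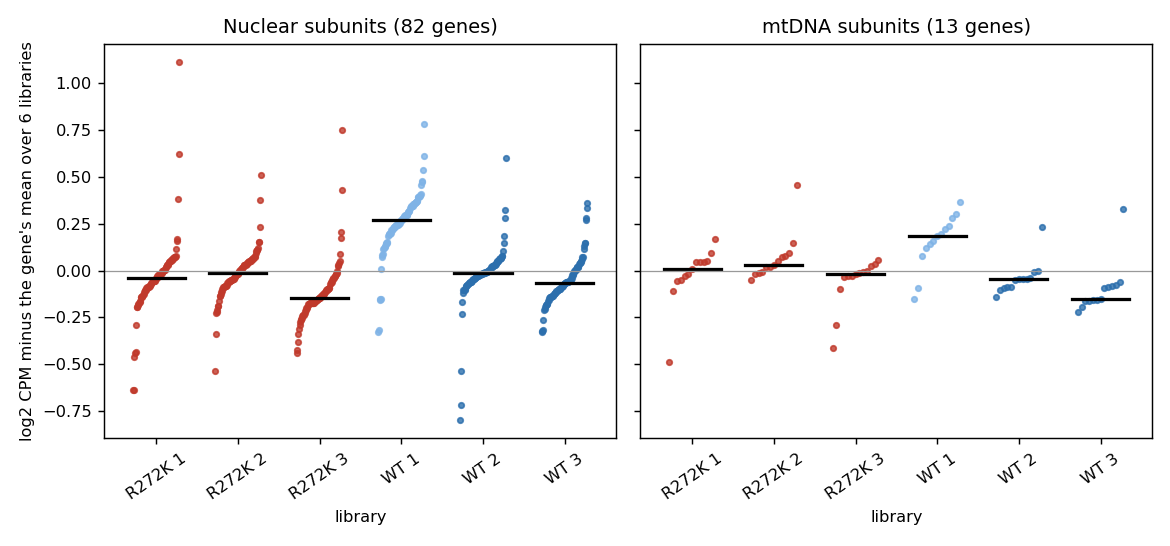
Log2 CPM of each tested gene minus its mean over the 6 libraries, for 82 nuclear subunits (left) and 13 mitochondrial genes (right), in R272K libraries (red), WT replicate 1 (light blue) and WT replicates 2 and 3 (dark blue); black lines are medians. WT replicate 1 has the highest median in both panels, and among the other libraries R272K replicate 3 is lowest for nuclear subunits and WT replicate 3 for mitochondrial genes.

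The promoters of 3 of these nuclear genes are shown because UQCR10 had the smallest p of all members, COX8A had the smallest p in complex IV and NDUFA9 was the nuclear subunit called without WT replicate 1. Each line gives the 150 bases before the RefSeq start on the plus strand of GRCh38.p14, at chr22:29767219-29767368 for UQCR10, chr12:4648964-4649113 for NDUFA9 and chr11:63974470-63974619 for COX8A. Capitals mark a motif of the kind bound by NRF1 (CGCNTGCG) in NDUFA9 and one of the ETS kind, to which GABP belongs (CCGGAAG, here as its reverse complement), in COX8A. The bases shown for UQCR10 hold none of the motifs searched, although its longer window of 300 bases holds CGCNTGCG.
UQCR10: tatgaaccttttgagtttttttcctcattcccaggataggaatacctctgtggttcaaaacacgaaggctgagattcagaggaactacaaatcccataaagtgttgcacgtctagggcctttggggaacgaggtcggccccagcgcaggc
NDUFA9: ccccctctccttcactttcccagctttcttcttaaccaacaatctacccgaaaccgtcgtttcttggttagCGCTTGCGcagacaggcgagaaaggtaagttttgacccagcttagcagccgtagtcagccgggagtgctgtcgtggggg
COX8A: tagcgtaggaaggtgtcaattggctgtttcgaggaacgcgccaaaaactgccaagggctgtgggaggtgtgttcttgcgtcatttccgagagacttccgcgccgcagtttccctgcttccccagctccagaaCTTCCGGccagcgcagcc
RefSeq promoters of 300 bases, 250 before the start and 50 after it, were matched for 77 of the 96 nuclear members. A symbol was counted when any of its promoters matched. On either strand, CGCNTGCG was found in 28 of the 77 (36.4%), where 12.01% of all 27305 symbols with a promoter held it. CCGGAAG was found in 23 (29.9%, against 12.2%) and the GC box GGGCGG in 48 (62.3%, against 48.3%). The 3 motifs can overlap in a promoter. A match describes the letters and shows no binding.

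Among the 13 mitochondrially encoded subunits, calls appeared only when WT replicate 1 was left out. With all 6 libraries 0 were called by edgeR, DESeq2 or limma-voom, and the median log2 fold change was 0.01. At an unadjusted p under 0.05, 1 was higher and 0 lower, where 1142 of all 15911 genes were higher and 1128 lower. Without WT replicate 1, 5 of 13 rose (MT-ND1, MT-CYB, MT-CO1, MT-ND5 and MT-CO2), 0 fell and 8 were not called, where 3.03% of all genes were called higher. The median was then 0.11 and 11 of 13 were positive. Under the other leave-outs 0 were called and the median lay between -0.07 and 0.05, so both the calls and the direction turned on which library was left out.

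MT-ND5, a proton-pumping subunit of complex I, had nearly the same fold change with and without WT replicate 1. It had 3263, 3378 and 3292 CPM in R272K libraries, against 2967, 3081 and 3028 CPM in WT libraries. Every R272K library was above every WT library, and the log2 fold change was 0.13 (SE 0.0553, adjusted p = 0.304) with all libraries and 0.12 (SE 0.0307, adjusted p = 0.0187) without WT replicate 1. The rise was small, at 8.39% over the mean of WT replicates 2 and 3.

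MT-ND1, the subunit that forms the entry to the quinone channel, had 1153, 1204 and 1129.6 CPM with R272K, against 1314, 1073 and 1024 CPM with WT. WT replicate 1 was the highest of all 6 libraries and the other WT libraries the lowest. The log2 fold change was therefore 0.03 (SE 0.0835, adjusted p = 0.897) with all libraries and 0.15 (SE 0.0355, adjusted p = 0.00862) without WT replicate 1. MT-CYB, the cytochrome b of complex III, showed the same order, with 1264, 1292 and 1197 CPM in R272K libraries, against 1353, 1109 and 1153 CPM in WT libraries. Its log2 fold change was 0.05 (adjusted p = 0.791) with all libraries and 0.15 (SE 0.0357, adjusted p = 0.0106) without WT replicate 1.

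MT-CO1 had 5588, 5485 and 5516 CPM with R272K, against 5707, 5097 and 5134 CPM with WT. MT-CO2, which receives electrons from cytochrome c, had 1877, 1896 and 1905 CPM with R272K, against 2363, 1784 and 1721 CPM with WT. In both genes R272K libraries lay between WT replicate 1 and the other WT libraries. When WT replicate 1 was left out, both log2 fold changes were 0.11 (adjusted p = 0.0161 and 0.035), and with all libraries they were 0.06 and -0.05 (adjusted p = 0.717 and 0.863).

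MT-CO3, MT-ND4 and MT-ND6 had like differences without WT replicate 1 but were not called. MT-CO3, the third core subunit of complex IV, stood at 919 ± 26.9 CPM in R272K and 902 ± 101 CPM in WT cells (SD, n = 3 each). MT-ND4, a proton-pumping subunit, stood at 2363 ± 64.1 CPM in R272K and 2352 ± 291 CPM in WT cells. Leaving out WT replicate 1, their log2 fold changes were 0.12 and 0.11 (edgeR adjusted p = 0.0541 and 0.0618). MT-ND6, the one subunit encoded on the other strand, had 718, 770.2 and 793 CPM with R272K, against 999, 728 and 678 CPM with WT, and one of the R272K libraries lay below WT replicate 2. Its log2 fold change without WT replicate 1 was 0.11 (adjusted p = 0.103). No source used here states whether strand was used in counting. If it was not, RNA of the opposite strand over this gene would be counted with it.

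Of the other mitochondrial genes, MT-ND2 and MT-ATP6 were nearer 0, at 0.03 and 0.05 without WT replicate 1 and -0.07 and -0.08 with all libraries. MT-ND2 stood at 728 ± 8.78 CPM in R272K and 764 ± 90.1 CPM in WT cells, and MT-ATP6, the proton channel subunit of ATP synthase, at 335 ± 6.96 CPM in R272K and 356 ± 56.3 CPM in WT cells (SD, n = 3 each). MTATP6P1, a nuclear copy of MT-ATP6, had 729 to 1095 counts beside 4690 to 7318 for the mitochondrial gene, so reads could be divided between them. The shortest genes varied most. MT-ND3 had 239.8, 236 and 175 CPM with R272K, against 252, 207 and 183 CPM with WT. MT-ND4L had 229, 217 and 200.4 CPM with R272K, against 193, 252 and 201 CPM with WT, and MT-ATP8, an accessory subunit of ATP synthase, 12.3, 23.8 and 13.03 CPM with R272K, against 18.8, 17.3 and 21.8 CPM with WT. The groups overlapped for all of these, and adjusted p-values lay at 0.631 or above in both fits.

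**Figure D4:**
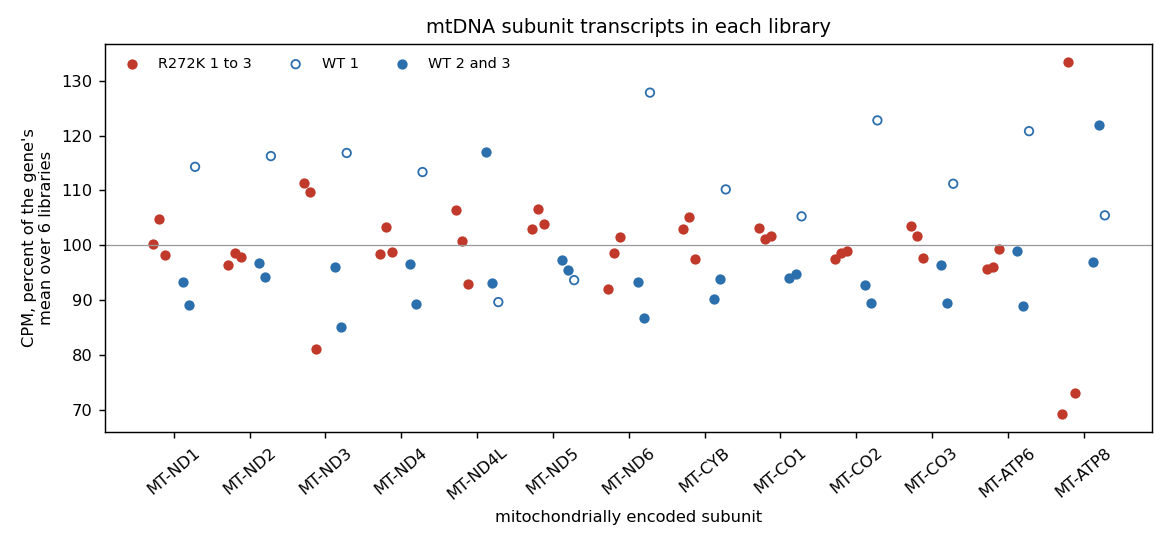
CPM of each mitochondrial gene as a percent of its mean over 6 libraries, in R272K libraries (red), WT replicate 1 (open blue) and WT replicates 2 and 3 (filled blue). WT replicate 1 is the highest library for 10 of the 13 genes, and MT-ND5 has all R272K libraries above all WT libraries.

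Every R272K library was above both WT replicates 2 and 3 in 7 of the 13 mitochondrial genes (53.8%), where the share of all genes was 17.1%, and below both in 0. With WT replicate 1 counted, 1 of 13 (7.69%) lay above all WT libraries, against 10.9% of all genes. Leaving out WT replicate 1 and also removing the dependence on gene length from each library, an alternative chosen after seeing the data, gave 6 mitochondrial genes higher, with MT-CO3 (log2 fold change 0.13, adjusted p = 0.0336) added to the other 5. Over all fits run, the adjusted p lay between 0.00657 and 0.983 for MT-ND1, 0.00768 and 0.994 for MT-CYB, 0.0161 and 0.900 for MT-CO1, 0.0187 and 0.617 for MT-ND5, 0.035 and 0.989 for MT-CO2 and 0.0336 and 0.982 for MT-CO3.

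The annotated 3′ ends of the 5 called genes are shown next. They need not be the ends of the mRNAs, where a poly(A) tail sits, and mRNA ends were not measured here. In the GRCh38 reference 6 of the 13 genes end within a codon, so that the poly(A) tail itself supplies the rest of the stop codon, and 7 end on a full codon. Of these 7, MT-ATP8, MT-ND4L and MT-ATP6 overlap the next gene, by 46, 7 and 1 bases. The last 21 bases follow, 5′ to 3′ on the plus strand, with the bases of the last full or partial codon in capitals. The genes lie on MT at 3307 to 4262 (MT-ND1), 14747 to 15887 (MT-CYB), 5904 to 7445 (MT-CO1), 12337 to 14148 (MT-ND5) and 7586 to 8269 (MT-CO2).
MT-ND1: cagcattccccctcaaaccTA
MT-CYB: acaaaatactcaaatgggccT
MT-CO1: cccgtatacataaaatctAGA
MT-ND5: accctactcctaatcacaTAA
MT-CO2: gggcccgtatttaccctaTAG
Both kinds of annotated end were among the calls. Of the 6 genes with a partial codon 2 rose without WT replicate 1, and of the 7 with a full codon 3 rose, with median log2 fold changes of 0.13 and 0.11 over the members of each kind.

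MT-ATP8 and MT-ATP6 are read from 1 mRNA and share 46 bases, at 8527 to 8572, shown here because they are 22.2% of MT-ATP8. The stop codon of MT-ATP8 is in capitals.
MT-ATP8 with MT-ATP6: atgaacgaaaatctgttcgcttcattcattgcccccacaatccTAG
At 269.6 TPM, MT-ATP8 was listed below MT-ATP6, at 1583 TPM, although both lie on that mRNA. No source used here states how reads in shared bases were counted, and its part in the lower value of MT-ATP8 was not tested.

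WT replicate 1 differed from the other WT libraries in the same direction for both kinds of subunit. It was the highest of the 6 libraries for 69 of 82 nuclear subunits (84.1%) and 10 of 13 mitochondrial genes (76.9%), against 28.02% of all genes. Its median log2 ratio to the mean of WT replicates 2 and 3 was 0.33 for nuclear subunits, 0.28 for mitochondrial genes and 0.01 for all genes. Cytosolic ribosomal protein genes had a median of 0.35 and mitochondrial ribosomal protein genes 0.27. Across all genes this ratio was mostly lower the longer the length by which the authors divided counts (Spearman's rho -0.40 over 15911 genes). Among the shortest genes it went the other way, with bin medians of 0.08 at 536.5 bases and 0.23 at 967.5 bases. Across nuclear subunits rho was -0.33 over 82 genes, and across mitochondrial genes -0.12 over 13 genes. In these descriptions all points share the same 3 libraries. The median length was 1591 bases for nuclear subunits, 784 bases for mitochondrial genes and 3490.0 bases for all genes tested. With each library's length trend removed from all 6 libraries, the nuclear median was -0.10 and 69 of 82 were negative, of which 66 were among the 72 negative before.

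**Figure D5:**
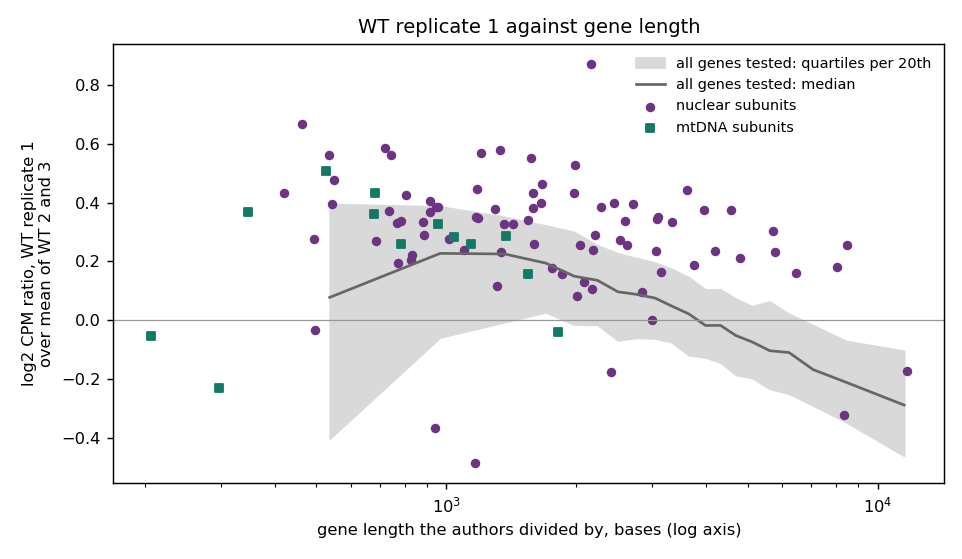
Log2 ratio of CPM in WT replicate 1 to the mean of WT replicates 2 and 3 against gene length in bases (log axis), for nuclear subunits (purple), mitochondrial genes (green) and all genes tested (grey line and band, the median and quartiles in 20 length bins). The grey line rises from 0.08 at 536.5 bases to 0.23 at 967.5 bases and then falls with length, and most subunits lie above it.

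Nuclear and mitochondrial subunits were also set against each other within each library. The median of nuclear subunits minus that of mitochondrial genes, each relative to the mean over 6 libraries on the log2 scale, was -0.05, -0.04 and -0.12 in R272K libraries, against 0.09, 0.03 and 0.09 in WT libraries. The groups did not overlap, with WT replicate 1 or without it. No test is given for this value, since the members were chosen with results of these data known. The pattern was not particular to the nuclear subunits. Medians of NDUFAF factors, mitochondrial ribosomal and cytosolic ribosomal proteins also lay below the mitochondrial gene median in every R272K library and above it in every WT library. For cytosolic ribosomal proteins they were -0.02, -0.01 and -0.15 in R272K, against 0.29, 0.01 and -0.13 in WT libraries. Mitochondrial genes had 0.01, 0.03 and -0.02 in R272K, against 0.18, -0.05 and -0.15 in WT libraries.

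In GENCODE release 29, 17 of the 90 tested nuclear members share at least 20% of their exonic bases with another gene, and their median level was 43.6 TPM, against 112 TPM for the other 73. The first set ran from COX6B2 at 1.42 TPM to NDUFA1, an accessory subunit of complex I, at 796 TPM, and 12 of its 17 members had 10 TPM or more. Of the 13 tested nuclear members under 10 TPM, 5 were in this set, namely COX6B2, NDUFS7 (2.28 TPM), NDUFA13 (5.77 TPM), NDUFV2 (7.97 TPM) and NDUFB8 (8.17 TPM), chosen after their values were seen. NDUFV2, another core subunit near the NADH site, had 33 to 47 counts per library where its pseudogene NDUFV2P1 had 87 to 142. The part of overlaps and copies in these levels was not tested.

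Genes around the pathway were compared in the same way. With all 6 libraries, 1128 of all 15911 genes were lower and 1142 higher at an unadjusted p under 0.05. Electron carriers outside the name rule, such as cytochrome c, gave 0 calls among 5 in both edgeR fits, and 0 at an unadjusted p under 0.05 in either. Other assembly factors gave 0 among 45 with all 6 libraries and 12 lower at an unadjusted p under 0.05, while DESeq2 called 1 lower and limma-voom 0. In the fit without WT replicate 1, 2 of the 45 fell, where 2.47% of all genes were called lower. COX10, which makes the heme A precursor, had 31.7 CPM in R272K cells, against 39.1 CPM in WT replicates 2 and 3. DMAC2, a complex I assembly factor, had 29.1 CPM in R272K cells, against 35.8 CPM. Without WT replicate 3, 3 were called lower, where 146 of all 15911 genes were called lower. Factors of biogenesis and mitochondrial transcription gave 0 calls among 21, with 5 lower at an unadjusted p under 0.05, while DESeq2 called 1 lower and limma-voom 0. In the fit without WT replicate 1, 3 of the 21 fell, against that same 2.47% of all genes. They were PNPT1, a mitochondrial RNA-degrading enzyme (log2 fold change -0.18, adjusted p = 0.0105), TFB2M, which starts mitochondrial transcription (-0.31, adjusted p = 0.0175), and PPRC1, a coactivator of the PGC-1 family (-0.18, adjusted p = 0.039). Over all fits their highest adjusted p was 0.585 for PNPT1, 0.314 for TFB2M and 0.823 for PPRC1.

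Mitochondrial ribosomal proteins, which translate the 13 mitochondrial mRNAs, had 1 lower, 0 higher and 75 not called among 76, with a median of -0.16. Of all genes, 0.528% were called lower. MRPS30 fell to 64.97 CPM in R272K cells, against 81.4 CPM in WT cells (log2 fold change -0.33, adjusted p = 0.0265), a call lost without WT replicate 2 or any R272K library and by limma on TPM with either pseudocount. Its adjusted p lay between 0.000197 and 0.203 over all fits. Without WT replicate 1, 6 of the 76 fell, 0 rose and the median was -0.07, where 2.47% of all genes were called lower. MRPL58, MRPS35 and MRPL27 followed MRPS30 by smallest p. All R272K libraries lay below all WT libraries in 20 of the 76 (26.3%) and above in 0, against 10.4% and 10.9% of all genes. Cytosolic ribosomal proteins gave 0 calls among 77 in both fits, with medians of -0.12 with all libraries and 0.00 without WT replicate 1. With all libraries DESeq2 and limma-voom called 0 of them. At an unadjusted p under 0.05, 6 of the 77 were lower and 0 higher, where 1128 of all 15911 genes were lower and 1142 higher.

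Glycolysis, the other main source of ATP, had 1 higher, 0 lower and 16 not called among 17 genes, with a median of 0.04. Of all genes, 0.685% were called higher. PFKL, a phosphofructokinase gene, rose to 76.0 CPM in R272K cells, against 59.7 CPM in WT cells (log2 fold change 0.35, adjusted p = 0.0244), a call lost without WT replicate 2 or any R272K library and by limma on log2(TPM + 1) or log2(TPM + 0.1) (adjusted p = 0.114 and 0.115). Its adjusted p lay between 0.00036 and 0.193 over all fits. Without WT replicate 1, 3 of the 17 rose and 0 fell, where 3.03% of all genes were called higher. They were PFKL, LDHA, which reduces pyruvate to lactate (0.16, adjusted p = 0.0019), and PGK1, an ATP-producing kinase (0.16, adjusted p = 0.00295). Over all fits the adjusted p of LDHA lay between 0.0019 and 0.744 and that of PGK1 between 0.00295 and 0.66. Every R272K library was above every WT library in 4 of the 17 (23.5%) and below in 0, against 10.9% and 10.4% of all genes.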

How the data were processed

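Deposited tables hold the 6 libraries. The authors deposited raw read counts, and TPM, recorded here as a signal because repeated lines bring its columns above 1000000. According to the submitters' processing notes, reads were handled with HTSeq 0.10.0, HISAT2 2.1.0, fastp 0.23.0 and SAMtools on GRCh38, with settings and annotation release not given in the sources used here. Of 62710 lines, 60835 distinct symbols were kept once. The length behind each TPM was recovered from counts.

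Genes that passed edgeR's filter (minimum count 10, minimum total 15) entered edgeR's quasi-likelihood test (robust, two-sided, TMM scaling), with Benjamini-Hochberg adjustment over 15911 genes and calls under 0.05. Fold changes are R272K over WT on the log2 scale, and the SE is the fold change divided by the root of F. Software was Python 3.11.15 (matplotlib 3.10.9, pandas 2.3.3, numpy 2.4.6) and R 4.3.3 (DESeq2 1.42.0, limma 3.58.1, edgeR 4.0.16), and the test was tested on simulated data. Alternatives covered scaling, filters, tools, gene length, a replicate block and each library left out. The members, lists and tests were chosen with earlier results of these data known. Members named are the 13 mitochondrial genes, called genes, the 3 smallest p and the highest TPM of each class, the 5 smallest p without WT replicate 1, untested members, isoform pairs, and up to 4 called genes of each other list; 1 gene this rule names is not reported here. Libraries of a group differed beyond the noise of sampling, with a chi-square of 1.83 or more per degree of freedom.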

Additional observations from a re-analysis of the deposited data

How the results depend on the processing

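Counts of called nuclear and mitochondrial subunits stayed at 0 under the other scalings, a filter of 1 CPM in 3 libraries, mitochondrial genes left out of the totals, DESeq2, limma-voom, limma on log2(TPM + 1) or log2(TPM + 0.1), and the length trend removed. Nuclear subunits called lower numbered 1 with no filter (NDUFS6), and 1 without WT replicate 1 with or without the length trend removed (NDUFA9); leaving out single libraries gave 0 to 1. Mitochondrial genes called higher numbered 0 to 5 when single libraries were left out, and 6 without WT replicate 1 and the length trend. The nuclear median lay between -0.20 and -0.01 and the mitochondrial between -0.07 and 0.11 over single libraries left out, with the highest value of each without WT replicate 1. With the replicate number as a block, 138 genes were called higher and 124 lower and 0 members were called. Deviations of same-numbered libraries from their group means correlated at -0.06, -0.01 and -0.01. With means of 3 libraries these values cannot settle whether same-numbered libraries were made together, and no label says so.

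Over all genes, 109 higher and 84 lower calls became 482 and 393 without WT replicate 1, 227 and 247 with no filter, 232 and 270 with the length trend removed, 47 and 54 by limma with the smaller pseudocount and 49 and 55 with the larger, while DESeq2 gave 146 and 133; without R272K replicate 1, 2 or 3 the counts were 24 and 32, 24 and 37, and 21 and 34, without WT replicate 2 42 and 44, and 146 lower without WT replicate 3. The mitochondrial ribosomal list had 0 to 6 lower over all fits, other assembly factors 0 to 5, biogenesis factors 0 to 3 and cytosolic ribosomal proteins 0 to 2; glycolysis had 0 to 3 higher.

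The log2 fold change of ATP5F1B was 0.026 with the length trend removed and 0.0097 by limma with either pseudocount, and that of COX7A2 0.011 with the length trend removed, both on the other side of 0. MT-ND4 was -0.00051 and MT-ND4L -0.0063 scaled by library size only, and MT-ND4L -0.00081 with no filter. With single libraries left out, the log2 fold changes of 38 of the 103 tested members changed sign at least once, 29 of them without WT replicate 1. Among the members named, 16 did so. ATP5F1B lay between -0.047 and 0.049, COX4I1 between -0.17 and 0.039, COX6B1 between -0.14 and 0.076 and COX7A1 between -0.34 and 0.62. COX7A2 lay between -0.14 and 0.12, MT-ATP6 between -0.18 and 0.047, MT-CO2 between -0.13 and 0.11 and MT-CO3 between -0.0403 and 0.12. MT-CYB lay between -0.0021 and 0.15, MT-ND1 between -0.038 and 0.15, MT-ND2 between -0.13 and 0.032 and MT-ND3 between -0.081 and 0.15. MT-ND4 lay between -0.067 and 0.11, MT-ND4L between -0.0704 and 0.13, MT-ND6 between -0.18 and 0.11 and NDUFS5 between -0.15 and 0.071. None of these members was called with all 6 libraries, and the cause was not tested. Low counts limit MT-ATP8 and members under a few CPM.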
